A study of Mus musculus with 72 samples.

Results

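Expression of 6 genes known to mark atrial muscle was examined in 72 libraries of adult mouse heart: *Myl4*, *Myl7*, *Sln*, *Nr2f1*, *Nr2f2* and *Dkk3*. They were chosen by name, and their rows were found through Entrez identifiers in a table of 24237 genes. All 6 had a row, and 4 of them had counts in every library, whereas *Sln* had no count in 5 ventricle libraries and *Myl7* in 1.

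The heart builds its atria and ventricles from muscle cells that use different copies of the same contractile parts. *Myl7* encodes the regulatory and *Myl4* the essential myosin light chain of atrial muscle, in place of the ventricular light chains *Myl2* and *Myl3*. *Sln* encodes sarcolipin, a small membrane peptide that restrains the calcium pump of the sarcoplasmic reticulum, as phospholamban does in ventricle. *Nr2f1* and *Nr2f2* encode the nuclear receptors COUP-TFI and COUP-TFII; the second holds mouse atrial muscle in its atrial state and is also used in veins, lymphatics and connective tissue. *Dkk3* encodes a secreted glycoprotein of the Dickkopf family, found in adult atria.

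In GRCm38 with the GENCODE vM21 annotation, *Myl4* (Entrez 17896) lies at chr11:104550663-104595753 on the plus strand and *Myl7* (Entrez 17898) at chr11:5896637-5898782 on the minus strand. *Sln* (Entrez 66402) lies at chr9:53850164-53854560 on the plus strand and *Dkk3* (Entrez 50781) at chr7:112116017-112159057 on the minus strand. *Nr2f1* (Entrez 13865) lies at chr13:78188973-78199757 and *Nr2f2* (Entrez 11819) at chr7:70351944-70366735, both on the minus strand.

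The promoters of both light chains are shown because these genes varied together. Their correlation across libraries was the highest of any pair among the 6 (below, Pearson's r of 0.994). Each line gives the 250 bases before an annotated start from RefSeq on GRCm38.p6, read 5′ to 3′ on the gene's own strand, *Myl7* from chr11:5898783-5899032 on the minus strand and *Myl4* from chr11:104550413-104550662 on the plus strand. Capitals mark a CArG box, the letters bound by serum response factor.
*Myl7*: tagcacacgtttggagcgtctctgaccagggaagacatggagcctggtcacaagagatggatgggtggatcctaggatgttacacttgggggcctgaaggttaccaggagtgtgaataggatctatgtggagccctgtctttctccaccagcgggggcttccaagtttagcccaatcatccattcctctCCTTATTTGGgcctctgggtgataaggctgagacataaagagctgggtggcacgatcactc
*Myl4*: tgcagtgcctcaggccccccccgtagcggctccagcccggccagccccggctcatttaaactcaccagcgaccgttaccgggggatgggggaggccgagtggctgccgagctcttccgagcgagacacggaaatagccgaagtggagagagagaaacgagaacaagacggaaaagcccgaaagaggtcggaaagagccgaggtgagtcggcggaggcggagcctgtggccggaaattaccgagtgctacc
The CArG box of *Myl7* lies 61 to 52 bases before its start. Of 32851 promoter windows of this length in the table, 1.47% held a CArG box. Both strands were also searched for the letters AGATAA, one form of the site of GATA factors, present in 9.99% of windows. Other forms, such as the TGATAA in the *Myl7* window, were not searched for. The T-box letters AGGTGT were present in 11.8% of windows. The letters AGGTCA, one arm of a nuclear receptor site, were present in 14.0% of windows. No other match to the letters searched was found in either window shown. *Myl4* has 6 coding transcripts with more than one start, and the window shown belongs to the outermost. Windows for *Nr2f1* (2 in the table) and *Nr2f2* held none of these letters, and *Sln* and *Dkk3* had no entry, so that 4 of the 6 genes were matched.

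All mice were C57BL/6J, and each compartment came from microdissected hearts. Naïve Ahr+/+ mice were born to dams given corn oil vehicle by gavage, low-dose and high-dose mice were Ahr+/+ mice whose dams received TCDD (dioxin, a ligand of the Ah receptor) at 0.1 or 1 μg/kg on 3 days of gestation, and Ahr-/- mice carried a germline deletion of the receptor and came from untreated dams. Each of these 4 groups gave 3 libraries per sex from right atrium, left atrium and ventricles, at 10 months of age by the study's methods and 9 by the labels; the labels name TCDD as treatment for all samples, and groups were set by genotype, dose and control mark. Total counts ran from 11873417 to 28789382 per library, with a median of 19231739, so that 3 counts correspond to 0.104 to 0.253 counts in 1000000 (CPM), the limit that a count of 0 allows from counting error alone. The labels name the cell type as cardiomyocytes, yet 5 fibroblast genes summed to 648 to 3110 CPM in every library. Libraries are named here by the number in their title, which runs from 1 to 48 and from 49 to 72. Expression of Xist and of Y-linked genes went against the labelled sex in 8 of the 24 later libraries and in none of the first 48, namely in those labelled female right atrium (50, 56, 62, 68) and male ventricle (53, 59, 65, 71).

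All 6 genes had a higher median in libraries labelled atrium. Of the contractile genes, *Myl7* had a median of 677 CPM in the 48 libraries labelled atrium (0.118 to 2185) and 1.50 CPM in the 24 labelled ventricle (0 to 1193). The median of *Myl4* was 2141 CPM in atrium (2.21 to 5196) and 4.50 CPM in ventricle (0.626 to 3533). For *Sln* it was 133 CPM in atrium (0.0789 to 680) and 0.143 CPM in ventricle (0 to 184), the latter within the limit of a count of 0. The medians of both light chains thus differed by factors of 453 and 476, while the ranges of all 3 genes in the 2 kinds of chamber overlapped over most of their extent. In bulk tissue, fewer cells of a type and less RNA per cell cannot be told apart.

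The nuclear receptors were far less divided. *Nr2f1* had a median of 17.1 CPM in atrium (3.46 to 33.2) and 5.25 CPM in ventricle (2.64 to 14.2), and *Nr2f2* had 39.6 CPM in atrium (4.34 to 130) and 15.6 CPM in ventricle (6.30 to 43.6). Their ratios of medians were 3.26 and 2.54. The secreted *Dkk3* lay between both kinds of gene, with 555 CPM in atrium (0.592 to 1834) and 7.24 CPM in ventricle (1.69 to 506), a ratio of 76.7.

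The 6 libraries of one group and chamber spread widely. In right atrium, *Myl7* ran from 5.71 over a median of 787 to 1603 CPM in naïve, from 520 over 1122 to 2139 CPM in Ahr-/-, from 365 over 678 to 1891 CPM in low-dose and from 5.75 over 713 to 2028 CPM in high-dose mice. In left atrium the same values were 0.511, 581 and 1847 CPM in naïve, 1.86, 347 and 1624 CPM in Ahr-/-, 0.690, 952 and 2185 CPM in low-dose and 0.118, 606 and 961 CPM in high-dose mice. In ventricle they were 0.195, 8.50 and 573 CPM in naïve, 0.209, 0.479 and 301 CPM in Ahr-/-, 0.818, 59.5 and 1193 CPM in low-dose and 0, 0.555 and 375 CPM in high-dose mice. Each left atrium set held at least one library under 2 CPM and each ventricle set at least one over 300 CPM, so that no group was free of libraries at the level of the other chamber.
Medians of *Myl4* in right atrium were 2026 CPM in high-dose, 2077 in low-dose, 2472 in naïve and 3954 CPM in Ahr-/- mice. In ventricle its medians were 1.43 CPM in Ahr-/-, 3.03 in high-dose, 23.4 in naïve and 130 CPM in low-dose mice, and its maxima 704, 1469, 1378 and 3533 CPM. For *Sln* the right atrium medians lay between 119 CPM in low-dose and 293 CPM in Ahr-/- mice, and the left atrium medians between 68.4 CPM in Ahr-/- and 169 CPM in low-dose mice. The 4 groups overlapped in each chamber for all 3 contractile genes.
In CPM, group medians of the receptors lay closer together, at lower levels in atrium. By ratio, those of *Nr2f1* in right atrium were not closer than those of *Myl4* or *Myl7*. *Nr2f1* medians were 11.1 to 23.0 CPM in right atrium, 9.24 to 17.4 CPM in left atrium and 4.58 to 5.86 CPM in ventricle. *Nr2f2* medians were 33.4 to 50.0 CPM in right atrium and 30.9 to 46.8 CPM in left atrium. In ventricle *Nr2f2* was at 10.2, 18.3 and 38.2 CPM (lowest, median, highest) in naïve, 7.09, 14.0 and 36.4 CPM in Ahr-/-, 9.09, 19.1 and 43.6 CPM in low-dose and 6.30, 9.60 and 33.0 CPM in high-dose mice. The high-dose group thus had the lowest ventricular median of this gene, with overlap. *Dkk3* medians ran from 506 CPM in low-dose to 1178 CPM in Ahr-/- right atrium, from 344 CPM in Ahr-/- to 652 CPM in naïve left atrium, and from 4.96 CPM in high-dose to 31.3 CPM in naïve ventricle.

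**Figure D1:**
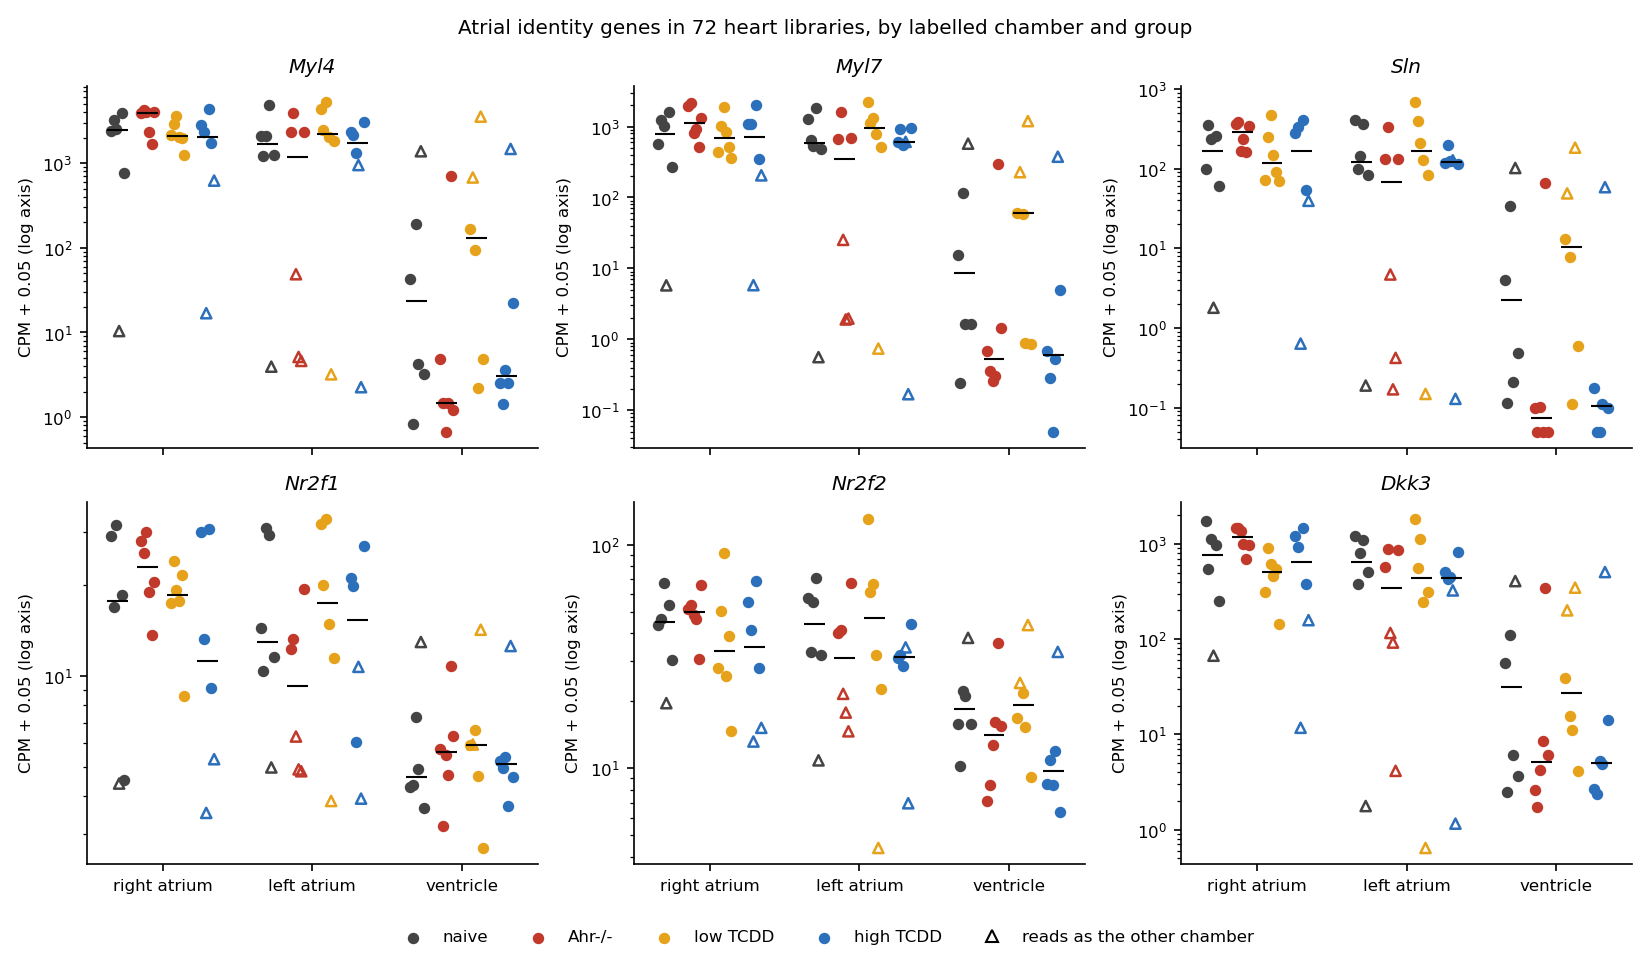
CPM of each gene (plus 0.05, log axis) in every library, by labelled chamber and, within it, by group in the order naïve, Ahr-/-, low-dose and high-dose TCDD; lines are medians of 6 libraries and open triangles are libraries that read as the other chamber from 17 other genes. Triangles and some filled points form a second cluster in each chamber, as for *Myl4* in atrium, where 8 libraries sit at or below 48.7 CPM and 40 at or above 621 CPM.

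To set the labels beside genes outside the 6, each library was read from 10 other atrial genes (among them *Nppa*, *Bmp10*, *Tbx5* and *Kcnj3*) and 7 ventricular genes (among them *Myl2*, *Myl3*, *Irx4* and *Hey2*). The reading is the mean log2(CPM + 1) of the former minus that of the latter. Its median was -0.15 in libraries labelled atrium and -3.63 in those labelled ventricle, and a library nearer to the other median was taken to disagree. By this rule 14 libraries disagreed, 10 of 48 labelled atrium and 4 of 24 labelled ventricle. Read by the mean of the 6 genes themselves, with medians of 7.72 and 2.10, 14 disagreed as well, 8 labelled atrium and 6 labelled ventricle. Both readings disagreed with the label in the same 12 libraries.

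The 8 libraries labelled atrium that went against the label by both readings comprised right atria 4 (naïve) and 11 (high-dose) of females, left atria 23 and 24 of Ahr-/- females, and the later left atrium library of males in each group, 51 (naïve), 57 (Ahr-/-), 63 (high-dose) and 69 (low-dose). *Myl7* stood at 5.71 CPM in library 4, 5.75 in 11, 25.2 in 23, 1.86 in 24, 0.511 in 51, 1.91 in 57, 0.118 in 63 and 0.690 in 69. *Sln* stood at 1.75 CPM in library 4, 0.587 in 11, 4.65 in 23, 0.120 in 24, 0.139 in 51, 0.372 in 57, 0.0789 in 63 and 0.0986 in 69. All 8 therefore lay below every other library labelled atrium for both genes. *Myl2* was at 3412 to 6839 CPM in them, against a median of 1987 CPM in the other 38 libraries labelled atrium by the same reading.
For *Dkk3* these libraries did not form one set: it was at 66.9 CPM in library 4, 11.7 in 11, 116 in 23 and 91.9 in 24, but at 1.72 in 51, 4.09 in 57, 1.10 in 63 and 0.592 in 69. The fibroblast sum was 1540 to 2094 CPM in the first 4 and 648 to 1304 CPM in the last 4; its part in the *Dkk3* level was not tested. Libraries 28 and 62, high-dose female left and right atrium, disagreed only by the other genes, and there *Myl4* was at 948 and 621 CPM, the eleventh and ninth lowest of the atrium labels.

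Libraries labelled ventricle disagreed in a graded way. *Myl4* was at 3533 CPM in library 71 (low-dose male), 1469 in 65 (high-dose male), 1378 in 53 (naïve male), 704 in 59 (Ahr-/- male) and 675 in 46 (low-dose male). The first 4 are the later male ventricle library of each group, which also read as female. In the same order *Nr2f2* was at 43.6, 33.0, 38.2, 36.4 and 24.0 CPM, all above the ventricle median, and *Dkk3* at 347, 506, 407, 341 and 200 CPM. Library 59 matched its label by the 17 other genes, with a reading of -2.06 beside a midpoint of -1.89, and went against it by the 6 genes. A second tier held *Myl4* at 193 CPM in library 35 (naïve female), 167 in 45 (low-dose male), 93.3 in 47 (low-dose female), 42.5 in 33 (naïve male) and 22.1 in 66 (high-dose female), and the other 14 lay below 5 CPM. In these 5, *Myl2* was at 2734 to 10905 CPM, and library 33 read as atrium when the same rule was applied to *Myl2* alone. *Nr2f1* and *Nr2f2* in the second tier, at 4.24 to 7.26 and 6.30 to 22.0 CPM, overlapped the ranges of the 14, which were 2.64 to 6.28 and 7.09 to 20.9 CPM.

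**Figure D2:**
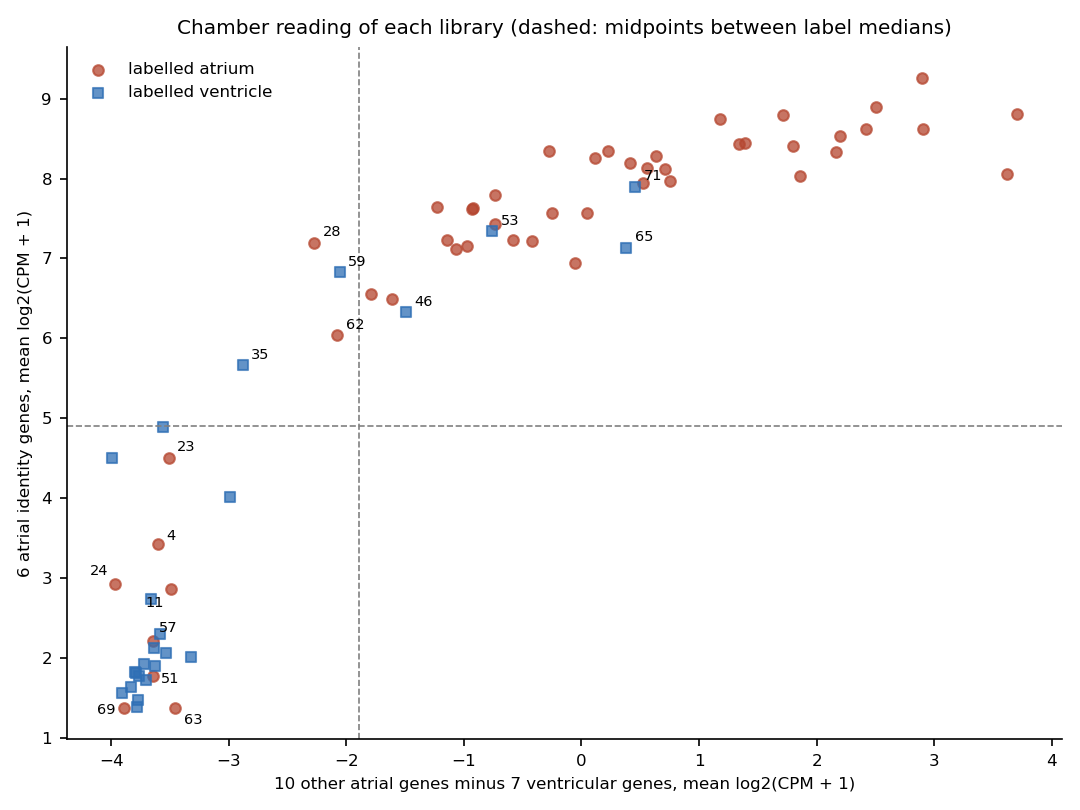
Mean log2(CPM + 1) of the 6 atrial identity genes against the reading from 10 other atrial and 7 ventricular genes, for libraries labelled atrium (circles) and ventricle (squares); dashed lines are the midpoints between label medians and numbers name libraries that disagree by either axis. Circles at the lower left and squares at the upper right are the 12 that disagree by both, and libraries 35 and 59 cross only the horizontal line while 28 and 62 cross only the vertical one.

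In libraries 49 to 72 the same labels deviated in all 4 groups. The one labelled male left atrium (51, 57, 63, 69) had *Myl4* at 2.21 to 4.57 CPM, the one labelled male ventricle (53, 59, 65, 71) had it at 704 to 3533 CPM and read as female, and the one labelled female right atrium (50, 56, 62, 68) read as male, with the right-atrial gene *Bmp10* at 0.195 to 2.21 CPM. Of those labelled female left atrium, 52, 58 and 64 had *Bmp10* at 50 CPM or more, and 70 had it under 20 CPM. The labels of sex, chamber and side are therefore in doubt for these 24 libraries, and every value that uses them as labelled carries that doubt. Whether labels were exchanged was not tested. Values from libraries 1 to 48 alone are given beside the main results.

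Restricting to the 58 libraries whose reading by the 17 other genes matched the label left 38 atrium and 20 ventricle libraries, here called agreeing. Medians were then 2343 against 3.35 CPM for *Myl4*, 921 against 0.829 for *Myl7*, 183 against 0.0626 for *Sln*, 814 against 5.55 for *Dkk3*, 19.3 against 4.88 for *Nr2f1* and 45.1 against 13.9 for *Nr2f2*. Every one of the 38 atrium libraries exceeded the highest ventricle library for *Myl4* (at least 762 against at most 704 CPM). The same held for 37 of 38 for *Myl7*, 36 for *Sln*, 33 each for *Nr2f1* and *Dkk3*, and 25 for *Nr2f2*. Among 13951 genes with a mean of at least 1 CPM, 30 (0.215%) had no overlap in this direction. The highest ventricle library was number 59 for all 6. Since these libraries were selected by chamber genes, the separation is partly set by the selection and carries no test.

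Levels between genes were compared per kb of the longest coding length. Among agreeing atria, the order of median levels was *Myl4* at 4046 CPM per kb, *Sln* at 1963, *Myl7* at 1755, *Dkk3* at 778, *Nr2f2* at 36.3 and *Nr2f1* at 15.3. *Sln* and *Myl7* were not apart beyond their spread between libraries. Reads of *Sln* come from a coding length of 93 bases, near the read length of 50 cycles, so that its level per kb is the least certain.

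Within agreeing atria the genes still varied widely, from 762 to 5196 CPM for *Myl4*, 273 to 2185 for *Myl7*, 53.5 to 680 for *Sln*, 143 to 1834 for *Dkk3*, 4.45 to 33.2 for *Nr2f1* and 14.6 to 130 for *Nr2f2*, which are ratios of the highest to the lowest library of 6.82, 8.01, 12.7, 12.9, 7.46 and 8.95. The share of light chain counts that were of the atrial form varied as widely. Of regulatory light chain counts (*Myl7* and *Myl2*), *Myl7* made up a median of 39.7% in the 21 agreeing right atria (8.36% to 99.5%) and 28.1% in the 17 agreeing left atria (13.5% to 99.6%). In agreeing ventricles the median was 0.0215% (0% to 7.44%). Of essential light chain counts (*Myl4* and *Myl3*), *Myl4* made up a median of 70.0% in right atria (21.0% to 99.7%), 68.8% in left atria (37.6% to 99.2%) and 0.102% in ventricles (0.0273% to 37.0%).
Only library 15 (low-dose female right atrium) and library 20 (naïve female left atrium) had over 99% of both light chains in the atrial form, and both had *Myl2* under 10 CPM. The median agreeing atrium thus held more counts of *Myl2* than of *Myl7*. Counts from bulk tissue do not give the cells that the *Myl2* reads came from. For a single library the interval from counting is narrow, as in library 53, with 20.4% *Myl7* (exact binomial 95% interval 20.0% to 20.7%), and covers counting error only.

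**Figure D3:**
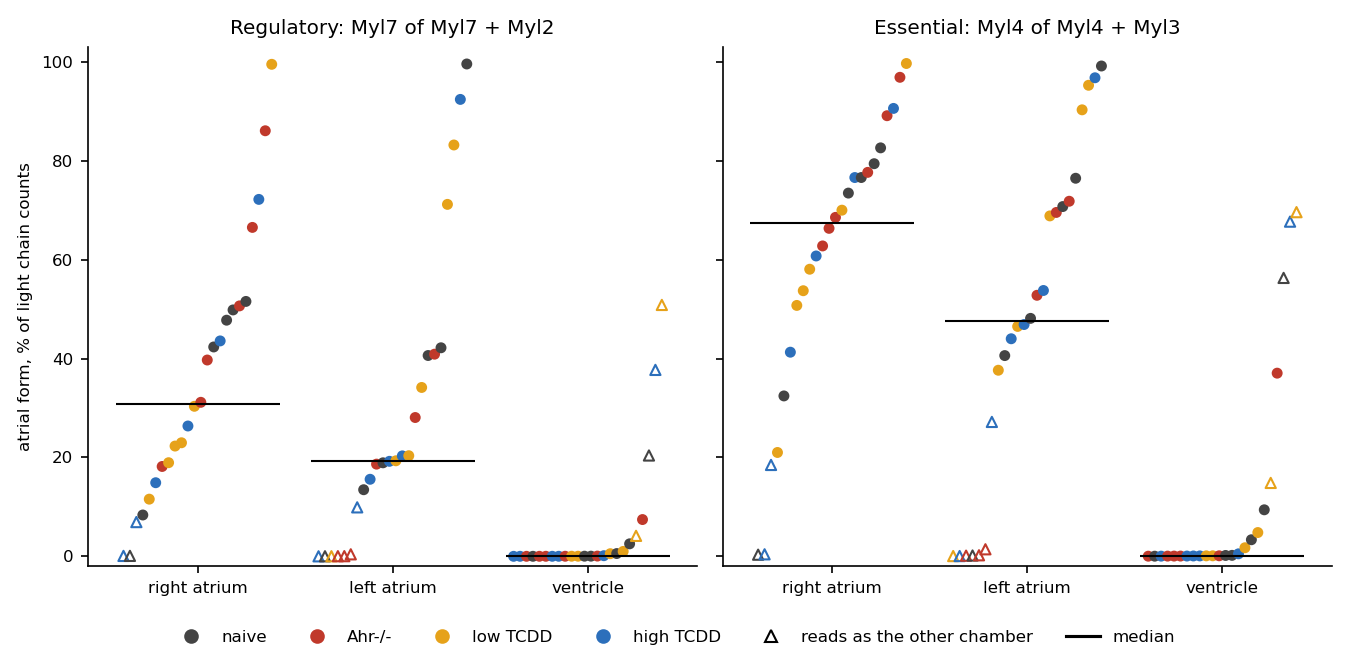
Atrial form as a percentage of regulatory (*Myl7* of *Myl7* plus *Myl2*) and essential (*Myl4* of *Myl4* plus *Myl3*) light chain counts in each library, ordered by value within labelled chamber and coloured by group; lines are medians over 24 libraries and open triangles read as the other chamber. Right atria run from 0.0840% to 99.5% and left atria from 0.00347% to 99.6% for the regulatory chain, and the triangles in ventricle reach 50.8%.

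Atria and ventricles were then compared within each group in one fit of all 72 libraries as labelled, with sex as a covariate. EdgeR's quasi-likelihood test was used with Benjamini-Hochberg adjustment over 16056 genes. In naïve mice the log2 fold change of atria over ventricle was 3.39 for *Myl4* (standard error 1.57, adjusted p = 0.224), 3.08 for *Myl7* (1.56, 0.273), 3.06 for *Sln* (1.45, 0.234), 3.09 for *Dkk3* (1.22, 0.153), 1.33 for *Nr2f1* (0.402, 0.0800) and 0.94 for *Nr2f2* (0.391, 0.173). None passed an adjusted p of 0.05, and 0% of all genes did. All 24 values over the 4 groups were above 0, from 0.85 to 4.91, and 0 of 6 genes passed in any group. At an unadjusted p under 0.05 the count was 5 in naïve, 6 in Ahr-/-, 3 in low-dose and 6 in high-dose mice, against 18.8%, 24.7%, 18.3% and 11.6% of all genes in either direction. DESeq2 called 2, 6, 0 and 1 of the 6, and 2.92%, 6.44%, 0.277% and 0.293% of all genes, higher in atria. By edgeR 4.92% of all genes passed in Ahr-/- mice and 0% in the low-dose and high-dose groups, and a term for the 2 series of library numbers raised the count in Ahr-/- mice to 2, with 3.84% of all genes called higher.

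Without the 14 libraries that disagreed, all 6 genes were called higher in atria in each of the 4 groups. Among all genes, 11.1% were called higher in atria in naïve, 10.8% in Ahr-/-, 9.83% in low-dose and 12.6% in high-dose mice. The naïve values became 5.42 for *Myl4* (standard error 1.32, adjusted p = 0.00244), 4.87 for *Myl7* (1.35, 0.00721), 4.36 for *Sln* (1.16, 0.00535), 4.32 for *Dkk3* (0.957, 0.000931), 1.81 for *Nr2f1* (0.336, 0.00012) and 1.34 for *Nr2f2* (0.306, 0.00117). The removed libraries had been picked by the 10 atrial and 7 ventricular genes, which follow the same chamber difference, so that these calls are partly set by the selection. Libraries 1 to 48 are a set defined by library number, though chosen with earlier results of these data known. They gave 6 calls in naïve, Ahr-/- and high-dose and 5 in low-dose mice, with *Myl4* at an edgeR adjusted p of 0.0507 in the last. Of all genes, 7.02%, 10.9%, 7.19% and 8.55% were called higher in atria in the same order of groups. In these first 48 libraries, 8, 7, 9 and 8 of the 10 other atrial genes were called higher in naïve, Ahr-/-, high-dose and low-dose mice, with a median log2 fold change of 3.10 in naïve mice beside 0.02 over all genes, and 1, 3, 1 and 4 of the 7 ventricular genes were called lower. As labelled, all 72 libraries gave 8 of the 10 atrial genes higher and 1 ventricular gene lower in Ahr-/- mice and no call of either list in the other groups.
Sums of markers of other cells are given for agreeing atria and ventricles. The fibroblast sum had a median of 2274 CPM (1085 to 3110) in atria and 1010 CPM (774 to 2184) in ventricles, and the venous and lymphatic endothelial sum 285 (160 to 673) and 178 CPM (108 to 281). The sum of 4 mesothelial genes was 111 (36.3 to 436) and 15.2 CPM (4.70 to 39.5), and that of 4 adipocyte genes 29.6 (0.682 to 1020) and 1.33 CPM (0.160 to 95.3). Their part in the differences of *Nr2f2*, *Nr2f1* and *Dkk3* was not tested.

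Single libraries moved these counts. In naïve mice, *Nr2f1* passed without library 4 (adjusted p = 0.0349), 51 (0.0365) or 53 (0.0234), with 2.34%, 2.37% and 4.46% of all genes called higher in atria. In high-dose mice, 5 of 6 genes passed without library 65, where the log2 fold change of *Myl4* was 7.34 in place of 3.64 and that of *Myl7* 8.39 in place of 4.30, and 2.83% of all genes were called higher. In Ahr-/- mice, whose adjusted p-values lay between 0.0533 and 0.0907, all 6 genes passed without library 59, with *Myl4* at 9.94 in place of 4.91 (6.97% of all genes called higher), and 5 passed without library 57 (5.97%). Leaving out any of libraries 15, 51, 55, 63, 65, 69 and 71 gave 2 calls and any of 12, 24, 29, 34 and 64 gave 1. Low-dose mice had no call under any omission. Fitted values of *Myl7* and *Sln* where ventricle libraries are at or near 0 depend on the prior count that edgeR adds, and give no bound on the fold.

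**Figure D4:**
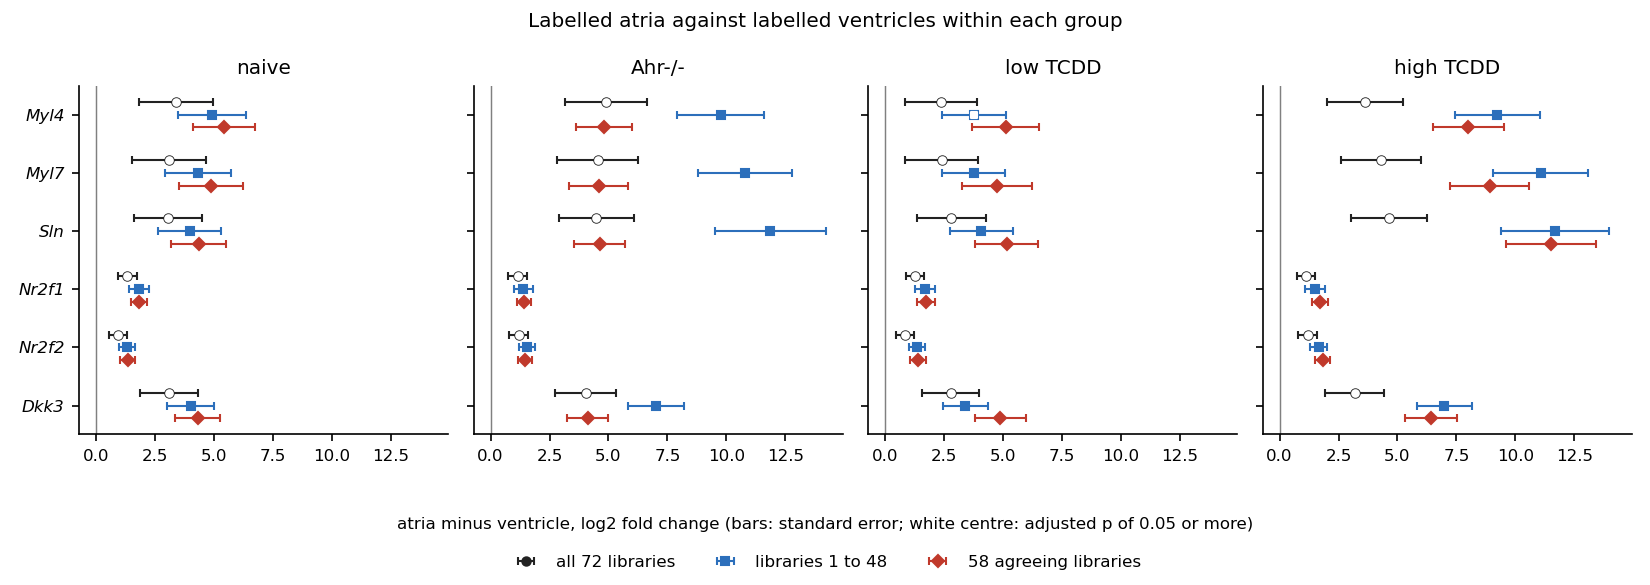
Log2 fold change of atria over ventricle with its standard error for each gene and group, from all 72 libraries (circles), libraries 1 to 48 (squares) and the 58 agreeing libraries (diamonds); a white centre marks an adjusted p of 0.05 or more. Every circle is white, every diamond is filled, and of the squares only *Myl4* in low-dose mice is white.

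The size of the chamber difference itself was not shown to differ between groups. The interaction of each group with the naïve atria-over-ventricle difference ranged from -1.01 to 1.59 on the log2 scale over the 18 tests, the widest for *Sln* in high-dose mice (1.59, standard error 1.79, adjusted p = 0.946). None of the 18 had an unadjusted p under 0.05 by edgeR, none was called by edgeR or DESeq2, and 0% of all genes were called by edgeR. Standard errors were 1.46 to 1.89 for the contractile genes and *Dkk3* and 0.531 to 0.537 for the receptors, so that differences of several-fold were not detectable. With libraries 1 to 48 only, *Myl4*, *Myl7*, *Sln* and *Dkk3* had larger values in Ahr-/- mice (4.85, 6.48, 7.90 and 3.01) and high-dose mice (4.33, 6.76, 7.72 and 2.97), each with an unadjusted p under 0.05, as had 2.98% and 4.97% of all genes. None passed the adjustment (p of 0.877 or more), and the naïve ventricles in these fits held libraries 33 and 35 of the second tier.

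Left and right atria were not told apart by these genes. Over the 4 groups the left-over-right log2 fold change ranged from -1.77 to 0.49, with the lowest adjusted p at 0.761 for *Nr2f1* in Ahr-/- mice (-1.07, standard error 0.435), the single test of 24 with an unadjusted p under 0.05 (6.43% of all genes there). None of the 6 was called by edgeR or DESeq2. Of all genes, edgeR called 0% in naïve, Ahr-/- and low-dose mice and 0.00623% (1 gene) in high-dose mice, and DESeq2 called 8, 0, 24 and 20 genes in naïve, Ahr-/-, low-dose and high-dose mice. With libraries 1 to 48 only, none of the 6 was called, and values ran from -1.74 for *Dkk3* in Ahr-/- to 0.74 for *Myl7* in naïve mice. The Ahr-/- values from all libraries, all negative, moved towards 0 without disagreeing libraries, to between -0.57 and 0.09, as 3 of the 6 Ahr-/- left atria (23, 24 and 57) were removed. The side labels themselves were mixed for genes that separate left from right: among agreeing atria *Bmp10*, a right-atrial gene in the adult mouse, was under 20 CPM in 7 of 21 libraries labelled right and at 50 CPM or more in 5 of 17 labelled left. *Myl7* had a median of 842 CPM in those 7 right atria and 1021 CPM in the other 14.

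Each Ahr-/- or TCDD group was also compared with naïve mice of the same sex and chamber, 3 libraries against 3, in 18 fits. *Sln* was too low to be tested in female ventricle, which left 105 tests of the 6 genes. Of these, 1 passed an adjusted p of 0.05, by edgeR and by DESeq2, and the same one was the only test with an unadjusted p under 0.05 by edgeR: *Nr2f2* in high-dose female ventricle. In that comparison 23.7% of all genes were called and 11.4% were called lower (13.4% by DESeq2), and 36.5% had an unadjusted p under 0.05, so that 1 call among the 5 genes tested is near the background. In the other 17 comparisons edgeR called 0% of genes as labelled, except 0.0216% in Ahr-/- female ventricle. DESeq2 called 0 to 541 genes, the most in low-dose female left atrium (541) and ventricle (502). With libraries 1 to 48 only, each fit compared 2 libraries with 2. EdgeR then called 2209 of 13865 genes in high-dose, 478 in low-dose and 86 in Ahr-/- male ventricle. It called 2712 and 65 in Ahr-/- and high-dose female left atrium, and 53 in Ahr-/- female right atrium. High-dose female ventricle had 1756 and all other comparisons none. Some of these fits held libraries that disagreed with their label in chamber. Both Ahr-/- female left atria, libraries 23 and 24, read as ventricle and were compared with naïve libraries 19 and 20. Library 28 was among the high-dose female left atria, 4 among the naïve female right atria and 46 among the low-dose male ventricles. The fits that gave 0% in male ventricle included later libraries that read as female, whose part in the count was not tested. Leaving out library 53, 59, 65 or 71 alone left the count at 0. That 0% does not show a lack of difference.

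*Nr2f2* was lower in the ventricles of high-dose females. Naïve libraries 35, 36 and 54 had 22.0, 20.9 and 15.7 CPM, and high-dose libraries 43, 44 and 66 had 8.35, 11.8 and 6.30 CPM. All 3 high-dose libraries lay below all 3 naïve ones, as 36.8% of genes did in one or the other direction, with means of 19.5 ± 3.37 and 8.82 ± 2.80 CPM (SD, n = 3 each). EdgeR gave a log2 fold change of -0.98 with a standard error of 0.193 and an adjusted p of 0.00394, and values from -1.18 without library 44 to -0.88 without library 66 when each library was left out (adjusted p from 0.00135 to 0.0246). These 6 libraries matched their labels in sex and in chamber by the 17 other genes, but naïve library 35, the highest for *Nr2f2*, read as atrium by the 6 genes themselves; without it the value was -0.95 (adjusted p = 0.0246), and with libraries 1 to 48 only it was -0.97 (adjusted p = 0.0256). Scaling by library size alone moved the median of all genes to -0.17 and *Nr2f2* to -1.15.
The related receptor *Nr2f1* was at 7.26, 4.87 and 3.58 CPM in naïve and 5.31, 3.64 and 4.57 CPM in high-dose libraries (log2 fold change 0.00034, standard error 0.281). *Nr2f2* had 12.6, 16.1 and 15.4 CPM in Ahr-/- female ventricle (-0.32, standard error 0.191, adjusted p = 0.572) and 21.5, 15.3 and 9.09 CPM in the low-dose one (-0.20, 0.248, 0.701). Sums over 5 genes each of fibroblasts and of venous and lymphatic endothelium, cells that also use *Nr2f2*, are given beside it. Fibroblast sums were 1740, 1446 and 998 CPM in naïve and 967, 959 and 854 CPM in high-dose libraries, and endothelial sums were 207, 231 and 164 against 205, 181 and 175 CPM; their part in the *Nr2f2* difference was not tested.

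**Figure D5:**
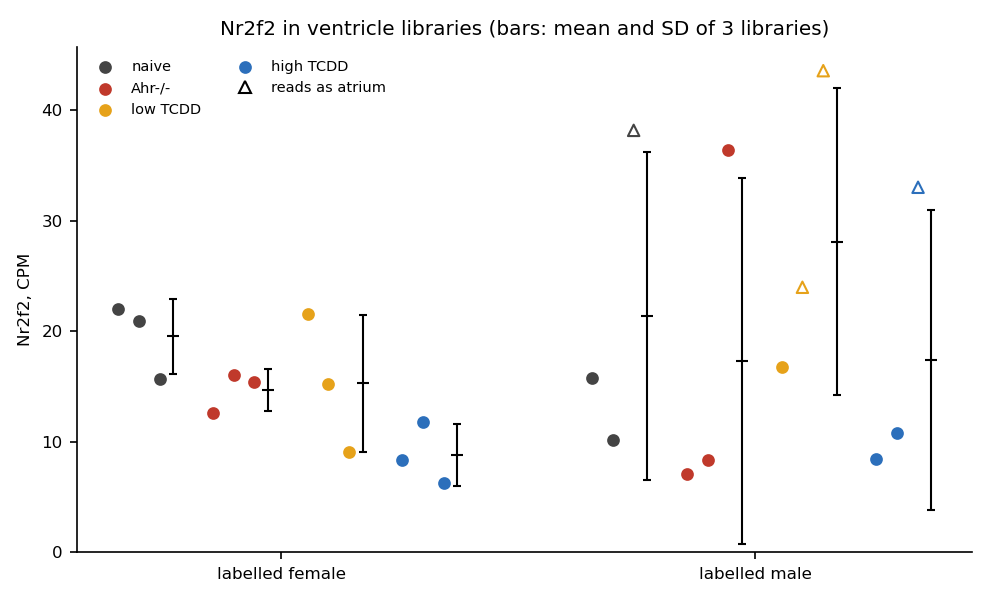
*Nr2f2* CPM in each library labelled ventricle by labelled sex and group, with mean and SD of 3 libraries; open triangles read as atrium. In females the high-dose libraries (6.30 to 11.8 CPM) lie below the naïve ones (15.7 to 22.0 CPM), and in each male group one library stands above the rest, at 33.0 to 43.6 CPM.

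In the other 5 high-dose comparisons *Nr2f2* had log2 fold changes from -0.57 to -0.15, none past the threshold; in male ventricle the value was -0.31 (standard error 0.593, adjusted p = 0.863), with library 65 at 33.0 CPM and naïve library 53 at 38.2 CPM among those compared. The difference between the sexes was not tested. Ahr-/- values of *Nr2f2* were below 0 in 5 of 6 comparisons and low-dose values in 3 of 6. These 3 groups share the naïve libraries.

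Other large differences between groups did not pass the test as labelled. In Ahr-/- female ventricle, *Myl4* was at 0.626, 1.43 and 1.16 CPM against 193, 4.23 and 3.14 CPM in naïve libraries, with library 35 the highest. *Myl7* was at 0.209, 0.253 and 1.40 against 115, 1.60 and 1.60 CPM. Neither gene overlapped between groups, as was the case for 12.6% of all genes there, and neither passed the test (log2 fold changes of -5.82 and -5.65, standard errors 2.22 and 2.41, adjusted p = 0.523 and 0.524). Without library 35 their values were -1.74 and -1.21. Apart from *Nr2f2* and these 2 genes, no tested gene of the 6 was without overlap in any of the 18 comparisons. In Ahr-/- female left atrium, *Dkk3* was at 116, 91.9 and 857 CPM in libraries 23, 24 and 58 against 797, 1109 and 506 CPM in naïve libraries 19, 20 and 52. By edgeR its log2 fold change of -1.12 (standard error 0.912, adjusted p = 0.565) became -2.85 (0.343, 0.0325) without library 58, the only one of the 3 that read as atrium, where 1.40% of all genes were called lower. With libraries 1 to 48 only, *Nr2f1* (-2.30), *Nr2f2* (-1.55) and *Dkk3* (-3.06) were called lower there, as were 9.39% of all genes, in a comparison of libraries 23 and 24 alone with naïve libraries 19 and 20.

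For each gene, the 3 other genes whose log2(CPM + 1) followed it most closely over the 72 libraries are given as a description, since all points share the chamber difference. *Mybphl*, which encodes a myosin-binding protein of atrial muscle, came first for *Myl7* (Pearson's r = 0.995), *Myl4* (0.993), *Sln* (0.991) and *Dkk3* (0.962). *Fgf12* came second for the first 3 (0.976 to 0.986), followed by *Tmem163* for both light chains and *Gm12522* for *Sln*, and *Gpx3* and *Camk1d* followed for *Dkk3*. *Nr2f1* was closest to *Nat8f6*, *Nat8f7* and *Aif1l* (0.935 to 0.945), of which the first 2 are near-identical copies whose reads may not be separable. *Nr2f2* was closest to *Pdk3*, *Tbx5* and *Eef1a1* (0.937 to 0.950), and *Tbx5* is among the 10 atrial genes used to read the libraries. Between the 6 genes r ran from 0.994 for *Myl4* with *Myl7* to 0.855 for *Myl7* with *Nr2f1*.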

How the data were processed

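RNA was extracted from microdissected right atrium, left atrium and ventricles of 3 mice per sex and group and sequenced by the authors (HiSeq, 50 cycles). TopHat was used by the authors for alignment to mm10; they counted reads on coding regions of genes and deposited raw counts per Entrez gene, without normalization; CASAVA 1.8 and bcl2fastq are named in the submitters' processing notes, and strand handling is not given in the sources used here. Of 24237 identifiers, 24155 matched a RefSeq symbol. CPM are counts over the library total times 1000000.

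The 6 genes, the marker lists and the comparisons were chosen with earlier results of these data known. Genes named are the 6, the 3 genes closest to each by Pearson's r (mean CPM of at least 1), and single markers of the fixed lists. Groups follow the labels; no library was moved. The 3 compartments of a heart are not independent, and the labels do not say which share one. The 18 group comparisons and the 72-library chamber fit used edgeR 4.0.16 (R 4.3.3; filterByExpr with minimum count 10 and total 15, TMM, robust quasi-likelihood F test, Benjamini-Hochberg over all genes tested, adjusted p under 0.05); the standard error is the absolute log2 fold change over the square root of F. The steps were run on simulated data with a capped spread between libraries and no mislabelled library. That run does not cover libraries that disagree with their label. Alternatives were no filter, RLE, library size only, DESeq2 1.42.0, an adjusted p of 0.0001 (the study's threshold), a term for library series, libraries 1 to 48, omission of libraries that disagree in chamber, all groups in one fit, no sex term, and each library left out. Depth ranged from 11873417 to 28789382 counts; for genes near 0, as *Sln* and *Myl7* in ventricle, counting error is large too.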

Additional observations from a re-analysis of the deposited data

Results flagged for a closer look

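In the 72 sets of 6 libraries that share a group and a labelled chamber (one for each gene), the highest or lowest library was compared with its nearest neighbour by Dixon's gap. Chance alone would mark about 1 of 20 sets if values were normal and sets independent, but the 6 genes share the same libraries. The gap was taken on CPM without a logarithm, so that a library far below the rest is hardly marked. In naïve left atrium, *Myl7* at 0.511 CPM beside 481 CPM in the next library, with the highest at 1847 CPM, was not marked. The gap marked 19 sets, all of them labelled ventricle and all by their highest library, and only 4 libraries account for them: 53, 59, 65 and 71, which also read as the other sex. The lack of marks in atrium is partly set by the scale.

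Library 53 (naïve) stood apart with *Myl4* at 1378, *Myl7* at 573, *Sln* at 102 and *Dkk3* at 407 CPM. Library 59 (Ahr-/-) stood apart with *Myl4* at 704, *Myl7* at 301, *Sln* at 65.7, *Nr2f2* at 36.4 and *Dkk3* at 341 CPM. Library 65 (high-dose) did so for all 6 genes, with *Myl4* at 1469, *Myl7* at 375, *Sln* at 58.6, *Nr2f1* at 12.5, *Nr2f2* at 33.0 and *Dkk3* at 506 CPM. Library 71 (low-dose) stood apart with *Myl4* at 3533, *Myl7* at 1193, *Sln* at 184 and *Nr2f1* at 14.2 CPM. For *Myl4*, the nearest other ventricle library of the same group was at 193 CPM beside library 53, 4.86 CPM beside 59, 22.1 CPM beside 65 and 675 CPM beside 71.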

How the results depend on the processing

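Counts of the 6 genes called changed most for atria over ventricle, where the count with all 72 libraries was 0 in every group. It was 6 without chamber-disagreeing libraries in all 4 groups, and with libraries 1 to 48 only it was 6 in naïve, Ahr-/- and high-dose and 5 in low-dose mice. DESeq2 gave 2 in naïve, 6 in Ahr-/- and 1 in high-dose mice, and a term for library series gave 2 in Ahr-/- mice. For Ahr-/- female left atrium the count went from 0 to 3 with libraries 1 to 48 only, which leaves 2 against 2. For high-dose female ventricle it went from 1 to 0 at an adjusted p of 0.0001. Beside these, 276 of 290 counts under other settings equalled the main count or stayed within 1.5 times, among them all for left against right atrium and all interactions. The main count of genes called was 0 in every comparison but high-dose female ventricle. Nearly all of these matches are therefore 0 beside 0 and say little about stability. With each library left out, counts ranged from 0 to 1 for naïve, 0 to 6 for Ahr-/- and 0 to 5 for high-dose atria over ventricle, from 0 to 1 for Ahr-/- female left atrium, and did not change elsewhere. Libraries that disagreed in chamber numbered 14 by the 17 other genes, 14 by the 6 genes and 18 by *Myl2* alone. No log2 fold change of atria over ventricle, nor that of *Nr2f2* in high-dose female ventricle (-1.15 to -0.97, adjusted p of 0.00021 to 0.0424), changed sign under any setting. Medians of CPM scaled by TMM moved by less than the SD between libraries, a wide limit where libraries disagree. For *Myl4* in ventricle the SD was 799 CPM, and the median went from 4.50 to 4.88 CPM. Scaling by library size alone moved the median of all genes for atria over ventricle to 0.12 to 0.24, from -0.0059 to 0.05, with the 6 genes above it. No paired analysis was possible because replicate numbers are library numbers that no 2 groups share, and the labels do not tie compartments to a heart.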
